A study of Homo sapiens with 22 samples.

Results

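A set of 10 genes of glucose uptake and glycolysis was followed through 3 human acute myeloid leukaemia cell lines: the glucose transporter gene SLC2A1 and the enzyme genes HK2, PFKP, ALDOA, GAPDH, PGK1, ENO1, PKM, LDHA and LDHB. They were chosen by symbol as carriers of the route from glucose entry to lactate. All 10 were present among 28063 gene symbols, and all 10 passed the filter on low counts that left 16794 genes for testing. Polyadenylated RNA of the lines MOLM-13, THP-1 and MV-4-11, all labelled wild type, had been sequenced in 22 libraries, 2 for each of 11 groups. Each line had a DMSO (solvent) group and groups given 1 µM BRM014, which blocks the SWI/SNF chromatin remodellers at their ATPase subunits SMARCA4 and SMARCA2, for 24 h or 72 h. THP-1 cells had 2 further groups. One received 10 nM PMA, a phorbol ester that turns these cells macrophage-like, for 48 h and then rested for 24 h without it, and the other was kept for 72 h in 3 µM DB2313, which blocks PU.1, the myeloid transcription factor encoded by SPI1. The labels do not give the time in culture of the DMSO libraries, so 1 DMSO group per line served every comparison of that line. Time in culture and treatment therefore cannot be told apart. Nor do they state separate cultures for the libraries of a group, and p-values here measure only how far these libraries lie apart, a spread that can be technical.

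Glycolysis splits glucose into pyruvate in the cytosol, with a net gain of ATP and NADH. A transporter lets glucose in, a hexokinase traps it as a phosphate, and phosphofructokinase commits it to the path. Aldolase splits the sugar, and the enzymes from GAPDH to pyruvate kinase harvest energy from the products. Lactate dehydrogenase then turns pyruvate into lactate and gives back the NAD+ that GAPDH needs. Proliferating and leukaemic cells are known for high flux through this route even with oxygen at hand, and MYC and the hypoxia-inducible factors are known activators of many of its genes.

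Each library held between 15893489 and 21565666 reads within genes. Log2 levels of the libraries of a group correlated across genes with r of 0.989 to 0.997. Of 8 myeloid markers, CD33, PTPRC, LYZ, MPO, ITGAM and FUT4 had reads in all 22 libraries, and ANPEP and KIT were each at 0 in 5. The platelet marker PF4 had none in any library, while ITGA2B, another marker of that lineage, had reads in every one, from 0.0607 to 152 CPM (counts scaled to the total of gene reads of the library). Pairs of libraries differed by more than counting error in every group. The pair of PMA libraries stood farthest apart, with a chi-square over genes of 30.4 for each degree of freedom, against 3.14 in the closest pair. Levels are given in CPM, replicate 1 before replicate 2.

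The sequence before the start of these genes was read first, since MYC binds the E-box CACGTG and hypoxia-inducible factors bind sites with the core ACGTG or GCGTG. RefSeq promoters on GRCh38.p14 matched all 10 genes, and the 250 bases before the first listed start were searched on both strands. A CACGTG word also holds ACGTG, so the first motif is part of the second. LDHA and GAPDH held CACGTG, which makes 2 of 10 genes, against 6.34% of 35116 promoters of the same length. The word ACGTG was present in 5 of 10 (HK2, ALDOA, GAPDH, PGK1 and LDHA) against 18.5% of promoters. GCGTG was present in 3 of 10 (HK2, PGK1 and ENO1) against 32.2%. No match lay in this window of SLC2A1, PFKP, PKM or LDHB. A match is a word in the sequence and not a measured binding site. The stretches shown are those of LDHA, PGK1, HK2 and ALDOA, whose transcripts fell in the BRM014 comparisons, and of LDHB, which fell alongside LDHA without any of these words in its window. PFKP, GAPDH, ENO1 and SLC2A1 also fell with BRM014 averaged over the lines and are not shown. The PFKP window lay wholly outside its annotated exons and, like that of LDHB, held none of these words. The choice of stretches is therefore no evidence that genes that fell hold a motif. Each runs 5′ to 3′ on the strand of the gene and covers the outer end of its window, up to the first base annotated as exon within it. For PGK1 and LDHB the GENCODE v29 gene starts far upstream of the RefSeq start used here, by 193509 bases in PGK1, so their windows lie inside the gene as annotated there. The windows of GAPDH, PFKP, SLC2A1, ENO1 and PKM also lie inside the annotated gene, which starts 1337 bases upstream in GAPDH and 1637 in PFKP. The GAPDH and ENO1 matches counted above are therefore words inside the gene in that annotation. Capitals mark the E-box or a core motif, read on either strand.
LDHA, chr11:18394313-18394387, plus strand: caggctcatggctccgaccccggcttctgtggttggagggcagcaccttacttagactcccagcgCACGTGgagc
PGK1, chrX:78103998-78104173, plus strand: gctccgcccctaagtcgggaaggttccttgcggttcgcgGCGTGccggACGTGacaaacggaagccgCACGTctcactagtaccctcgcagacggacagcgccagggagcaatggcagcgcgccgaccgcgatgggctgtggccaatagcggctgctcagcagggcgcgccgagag
HK2, chr2:74833877-74833980, plus strand: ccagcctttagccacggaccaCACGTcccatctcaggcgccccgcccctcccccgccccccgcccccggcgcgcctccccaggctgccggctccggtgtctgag
ALDOA, chr16:30064029-30064163, plus strand: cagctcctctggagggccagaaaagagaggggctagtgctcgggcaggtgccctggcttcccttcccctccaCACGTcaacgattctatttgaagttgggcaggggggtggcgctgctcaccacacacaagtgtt
LDHB, chr12:21657972-21658092, minus strand: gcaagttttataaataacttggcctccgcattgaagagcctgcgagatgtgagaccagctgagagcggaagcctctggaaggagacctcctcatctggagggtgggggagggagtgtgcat
The E-box of the LDHA stretch began 185 bases before the RefSeq start, and a further one began at 87 bases, within an annotated exon. The PGK1 stretch held GCGTG at 211 bases and ACGTG at 202 and 183 bases before the start. HK2 and ALDOA each held 1 ACGTG word in the part shown, at 229 and 178 bases.

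In DMSO, the middle and lower part of the path was far more abundant than its entry. Set per kilobase of annotated exon, so that genes can be compared, GAPDH led in MOLM-13 at 2218 ± 94.5 RPKM (CPM divided by exon length; SD, n = 2), followed by ENO1 at 1387 ± 49.7. SLC2A1 and HK2 stood at 15.3 ± 1.19 and 21.3 ± 0.585 RPKM in the same cells. In MV-4-11 cells GAPDH also led, at 2402 ± 55.5 RPKM, with SLC2A1 lowest of the 10 at 10.2 ± 1.35. THP-1 cells had another order, with ENO1 at 1007 ± 17.9 RPKM ahead of GAPDH at 749 ± 13.9, and SLC2A1 at 77.8 ± 0.580, above both PFKP (21.8 ± 2.09) and HK2 (10.6 ± 0.668). GAPDH has 62 annotated pseudogenes, none of them listed in these files, and exons of ALDOA and LDHB overlap those of unlisted genes by 1636 and 997 bases, so reads of these 3 genes may be incompletely assigned.

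The DMSO levels of all 10 genes differed among the lines, with p-values from edgeR's quasi-likelihood F test, adjusted by Benjamini-Hochberg over every tested gene, and a threshold of 0.05, as did 78.9% of genes tested. SLC2A1 was the only gene of the 10 that was higher in THP-1 than in both other lines. Its log2 level in THP-1 lay 2.19 ± 0.09 (SE) above MOLM-13 and 2.92 ± 0.10 above MV-4-11. The other 9 genes were lower in THP-1 than in MOLM-13, from −0.29 ± 0.11 (ALDOA) to −1.72 ± 0.11 (GAPDH) in log2. HK2 was highest in MV-4-11, 0.73 ± 0.11 above MOLM-13, and the THP-1 level relative to MV-4-11 was −1.89 ± 0.11. ENO1 was lowest in MV-4-11, at −1.27 ± 0.11 against MOLM-13, and its THP-1 level lay 0.65 ± 0.11 above MV-4-11.

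**Figure D1:**
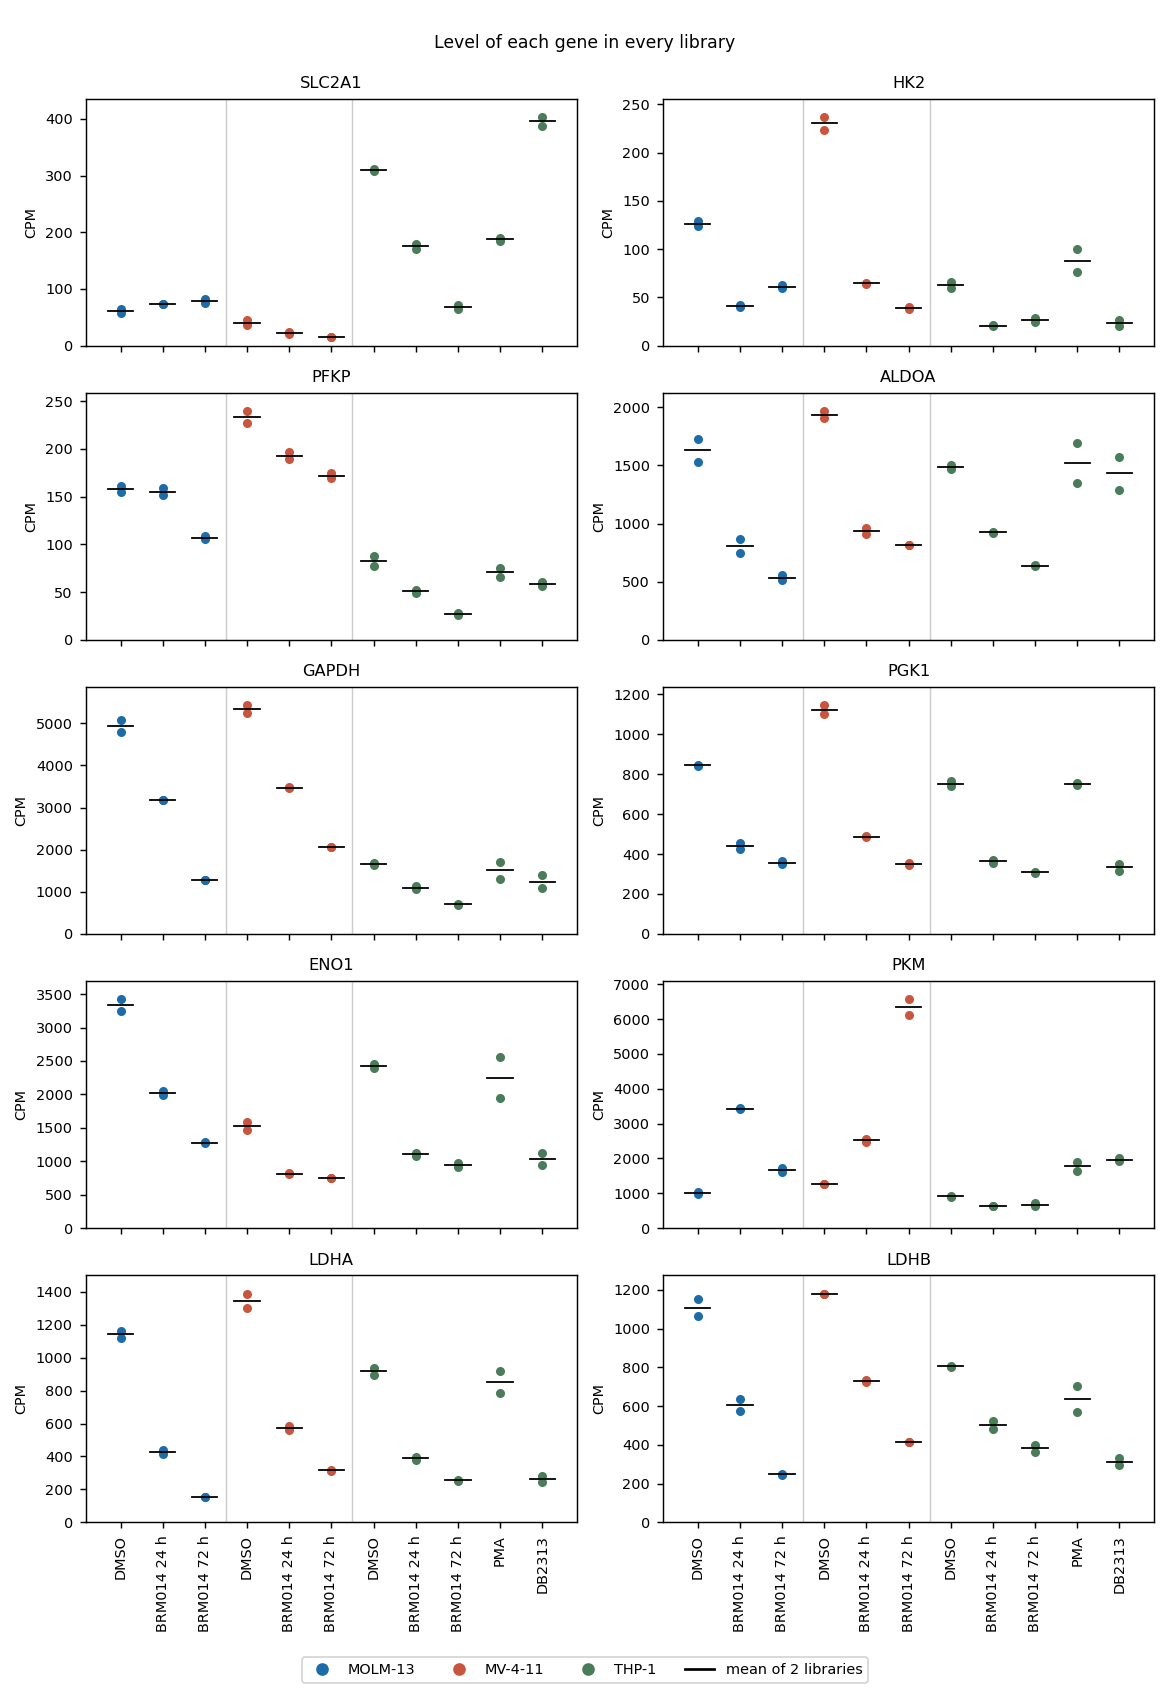
Level of each of the 10 genes in every library, in CPM on a linear axis from 0, with 1 panel per gene and the 11 groups along the horizontal axis. Points are libraries coloured by line and black bars are means of 2; most panels step down from DMSO to BRM014 at 72 h in each line, while PKM reaches 6340 CPM in MV-4-11 at 72 h and SLC2A1 396 CPM in THP-1 with DB2313.

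BRM014 lowered 9 of the 10 genes and raised 1, PKM, when the 3 lines were averaged, at 24 h and again at 72 h. HK2 and LDHA fell most at 24 h, to 3.40-fold and 2.60-fold lower levels. At 72 h LDHA fell most, 5.25-fold, followed by HK2 (3.31-fold), LDHB (3.23-fold) and GAPDH (3.11-fold). The median log2 fold change of the 10 genes was −0.91 at 24 h and −1.49 at 72 h, against 0.03 and 0.07 over all genes tested. Calls (adjusted p under 0.05 in the same test) were common in these data, at 27.1% of genes lower and 28.9% higher at 24 h, and 30.4% lower and 34.9% higher at 72 h. Fold changes use libraries scaled by TMM, whereas the levels in CPM are scaled only by the total of gene reads. In bulk RNA, fewer cells of a type and less RNA per cell cannot be told apart.

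**Figure D2:**
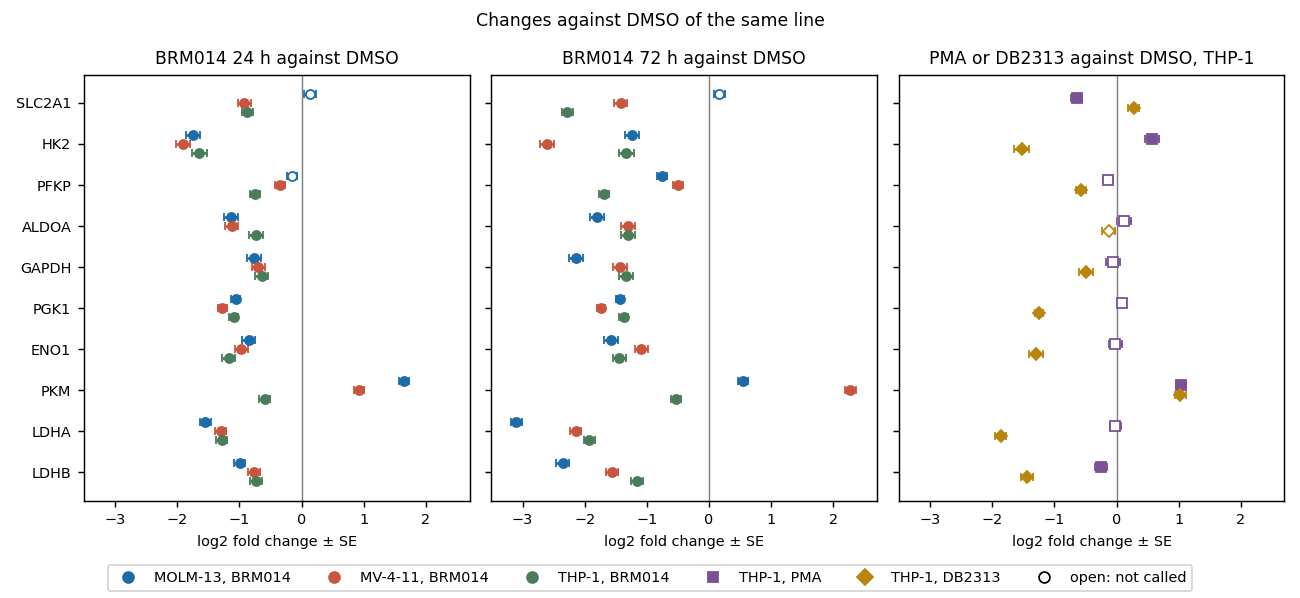
Log2 fold change ± SE of each of the 10 genes against DMSO of the same line, with BRM014 at 24 h on the left, BRM014 at 72 h in the middle, and PMA or DB2313 in THP-1 cells on the right. Circles are coloured by line, squares are PMA, diamonds are DB2313, and open symbols did not pass the test; nearly all BRM014 symbols lie left of 0 except those of PKM in MOLM-13 and MV-4-11 and the open ones of SLC2A1 in MOLM-13.

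At the entry, SLC2A1 (GLUT1, the basal glucose transporter of many cells) split the lines. In THP-1 its libraries held 308 and 312 CPM with DMSO, 170 and 179 after 24 h and 64.0 and 71.6 after 72 h. In MV-4-11 they held 36.7 and 44.3, then 20.8 and 24.2, then 15.9 and 15.6 CPM. These groups did not overlap at any step, and the gene fell by 2.28 ± 0.09 in THP-1 and 1.42 ± 0.11 in MV-4-11 on the log2 scale at 72 h. In MOLM-13 the libraries moved up a little, from 57.8 and 64.5 CPM to 73.0 and 73.8 and then 81.9 and 75.0. That rise was not called after TMM scaling, at 0.14 ± 0.09 and 0.17 ± 0.09 in log2, but it was called with libraries scaled by size alone, at 0.26 and 0.36.

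HK2, the inducible hexokinase of growing cells, was lower in every BRM014 library than in every DMSO library of its line. MOLM-13 went from 124 and 129 CPM to 42.4 and 39.6 at 24 h and 63.1 and 59.2 at 72 h. MV-4-11 went from 224 and 237 to 65.3 and 64.1 and on to 40.3 and 38.3. THP-1 went from 60.01 and 65.6 to 19.9 and 21.6 and then 24.9 and 28.3. The 24 h falls were alike in size, at 1.75 ± 0.11, 1.90 ± 0.11 and 1.65 ± 0.12 on the log2 scale, with no difference between the lines called. Between 24 and 72 h the lines parted. HK2 fell further in MV-4-11 (−0.71 ± 0.11) and rose in MOLM-13 (0.51 ± 0.11), and in THP-1 its change of 0.32 ± 0.12 missed the threshold (adjusted p = 0.0527), though it passed with RLE scaling, scaling by library size alone, no low-count filter, DESeq2, or only the libraries compared.

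PFKP, the platelet-type phosphofructokinase, moved least of the 9 genes that fell at 24 h when the lines were averaged. In MOLM-13 its 24 h libraries at 159 and 152 CPM overlapped the DMSO libraries at 154 and 161, and only the 72 h libraries, at 108 and 106, stood below them. In MV-4-11 the DMSO, 24 h and 72 h pairs were 227 and 239, 189 and 197, and 174 and 170 CPM. THP-1 showed the steepest fall, from 88.0 and 76.9 through 49.0 and 52.2 to 27.7 and 26.4 CPM. The 72 h log2 changes were −0.75 ± 0.08 in MOLM-13, −0.50 ± 0.08 in MV-4-11 and −1.69 ± 0.09 in THP-1.

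The 4 enzymes in the middle of the path fell in all 3 lines at both times. ALDOA, the aldolase that splits the sugar phosphate, went from 1530 and 1728 CPM in MOLM-13 to 749 and 866 and then 553 and 517. In MV-4-11 it went from 1906 and 1967 to 907 and 958 and then 818 and 812, and in THP-1 from 1468 and 1501 to 925 and 921 and then 643 and 632. ALDOA thus reached between 2.47-fold and 3.48-fold lower levels at 72 h.

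GAPDH, the step that makes NADH, went down at 24 h and further by 72 h in all 3 lines. MOLM-13 libraries held 4784 and 5082 CPM with DMSO, 3181 and 3174 at 24 h, and 1288 and 1272 at 72 h. In MV-4-11 these were 5256 and 5430, 3480 and 3461, and 2054 and 2055. THP-1, with 1644 and 1688 CPM in DMSO, was at 1132 and 1069 and then at 709 and 694. GAPDH is often taken as a constant reference, and here its 72 h level was 4.40-fold lower in MOLM-13, 2.71-fold in MV-4-11 and 2.52-fold in THP-1.

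PGK1, the first ATP-making kinase of the path, had the narrowest span of 72 h changes across the lines. Its pairs in MOLM-13 were 847 and 842 CPM with DMSO, 456 and 426 at 24 h and 351 and 364 at 72 h. In MV-4-11 they were 1100 and 1145, 485 and 490, and 357 and 345 CPM, and in THP-1 738 and 764, 372 and 355, and 307 and 309. At 72 h its log2 changes ran from −1.37 ± 0.07 (THP-1) to −1.74 ± 0.07 (MV-4-11).

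ENO1, the enolase found in most cells, fell early in MV-4-11 and THP-1. MV-4-11 libraries went from 1468 and 1583 CPM to 814 and 820, and then only to 743 and 749. THP-1 libraries went from 2391 and 2452 to 1129 and 1085 and then 917 and 969. The further change from 24 to 72 h was not called in either line, at −0.12 ± 0.11 and −0.27 ± 0.11 in log2, but was called when only the libraries compared were fitted (adjusted p = 0.0146 and 0.000502). In MOLM-13 ENO1 kept falling, from 3251 and 3420 through 2044 and 1993 to 1292 and 1266 CPM, with a change of −0.72 ± 0.11 between the times.

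PKM, which encodes the M1 and M2 forms of pyruvate kinase and makes the last ATP of the path, ran against the others in 2 of the 3 lines. In MV-4-11 it rose from 1265 and 1261 CPM to 2481 and 2564 at 24 h and 6115 and 6565 at 72 h, a 4.82-fold rise. In MOLM-13 it rose from 969 and 1044 to 3425 and 3442 at 24 h and came back to 1740 and 1622 at 72 h, still 1.46-fold above DMSO. In THP-1 it fell, from 903 and 927 to 626 and 624 and then 625 and 719 CPM. The mean rise over the lines, 0.66 ± 0.05 at 24 h and 0.76 ± 0.05 at 72 h in log2, therefore does not describe THP-1, where the changes were −0.60 ± 0.08 and −0.53 ± 0.08. The counts are per gene and do not separate the M1 and M2 transcripts.

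At the exit, both lactate dehydrogenase genes fell in every line and fell further with time. LDHA, the muscle-type subunit, went in MOLM-13 from 1161 and 1122 CPM to 438 and 415 and then 153 and 151, an 8.58-fold fall. In MV-4-11 it went from 1300 and 1389 to 559 and 588 and then 314 and 319, and in THP-1 from 896 and 939 to 396 and 381 and then 254 and 258. The 72 h falls were 4.42-fold and 3.80-fold in these lines.

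LDHB, the heart-type subunit, followed the same order with smaller steps. MOLM-13 libraries held 1154 and 1064, 636 and 576, and 245 and 249 CPM. MV-4-11 libraries held 1180 and 1179, 726 and 736, and 415 and 415 CPM, and THP-1 libraries 808 and 803, 521 and 480, and 366 and 401. At 72 h LDHB was 5.12-fold, 2.96-fold and 2.23-fold lower in MOLM-13, MV-4-11 and THP-1.

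Counted by line at 24 h, 7 of the 10 genes were lower and 1 higher in MOLM-13 (23.5% and 22.7% of genes tested), 9 lower and 1 higher in MV-4-11 (22.4% and 23.6%), and 10 lower and none higher in THP-1 (24.1% and 25.9%). At 72 h the counts were 8 lower and 1 higher in MOLM-13 (29.4% and 30.3%), 9 and 1 in MV-4-11 (26.1% and 28.4%), and 10 and 0 in THP-1 (28.0% and 30.9%). Medians of the 10 at 72 h were −1.50, −1.43 and −1.35 in these lines, against 0.00, 0.00 and 0.06 over all genes. All 10 genes had 72 h libraries that did not overlap those of DMSO in each line, as had 76.3%, 76.6% and 79.2% of tested genes. From 24 to 72 h, 8 genes fell and 1 rose in MOLM-13 (22.7% and 20.8%), 6 fell and 1 rose in MV-4-11 (16.9% and 18.6%), and 7 fell and none rose in THP-1 (16.5% and 16.2%). These comparisons within a line share libraries, so their agreement in direction is no independent evidence.

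Several library measures moved with these changes. The reads outside annotated features were 18.2% and 18.4% of all counted reads in MOLM-13 at 72 h against 13.2% and 12.4% in DMSO, and 18.4% to 19.2% in the BRM014 libraries of THP-1 against 16.5% and 15.8%. In MOLM-13 at 24 h they were 12.99% and 13.6%, overlapping DMSO, and in MV-4-11 they were lower, at 12.03% in both 24 h libraries and 13.1% and 13.5% at 72 h against 14.3% and 13.8%. The summed level of 6 macrophage markers rose from 127 to 128 CPM in MOLM-13 DMSO libraries to 1011 to 1059 at 72 h, from 248 to 252 to 665 to 671 in MV-4-11, and from 438 to 454 to 743 to 788 in THP-1. CD68 made up 1039 of the 1059 CPM, whereas CD163 was at 0 in 15 of the 22 libraries and MRC1 in 12. The 8 myeloid markers summed lower at 72 h, at 833 to 851 CPM in THP-1 against 2795 to 2999 in DMSO, 614 to 631 against 978 to 992 in MV-4-11, and 730 to 738 against 792 to 833 in MOLM-13. Markers of epithelial cells and fibroblasts summed to 151 to 155 CPM in THP-1 at 72 h against 3.82 to 4.50 in DMSO. Their highest levels in any of the 22 libraries were 122 CPM for COL1A1, 45.7 for KRT8, 35.6 for CDH1 and 13.6 for PDGFRB. KRT18 stayed at or below 0.899 CPM in every library, EPCAM at or below 0.221, KRT19 at or below 0.209 and COL1A2 at or below 0.119. The part of these measures in the changes of the glycolysis genes was not tested.

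The size of the BRM014 effect differed between lines for 3 of the 10 genes at 24 h (43.5% of genes tested; 5 or 6 genes with no low-count filter, DESeq2 or only the libraries compared) and for all 10 at 72 h (52.9%). At 24 h these were SLC2A1, PFKP and PKM. The effect on PKM in THP-1 relative to MOLM-13 was −2.24 ± 0.12 on the log2 scale, and relative to MV-4-11 it was −1.52 ± 0.12. At 72 h the lactate dehydrogenase genes fell more in MOLM-13 than in the other lines, by 1.17 ± 0.12 (LDHA) and 1.20 ± 0.13 (LDHB) relative to THP-1. SLC2A1 and PFKP fell most in THP-1, and HK2 most in MV-4-11, where its effect relative to MOLM-13 was −1.37 ± 0.15. The 72 h calls of ALDOA, ENO1 and PGK1 were the least secure, with adjusted p of 0.0123, 0.0244 and 0.00710, and each was lost without some single libraries.

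Within pairs and sets of isoenzymes, the balance shifted as well. Per kilobase, LDHA made up 35.5% ± 0.763 (SD, n = 2) of LDHA and LDHB together in MOLM-13 DMSO libraries, 27.3% at 24 h and 24.7% at 72 h. MV-4-11 went from 37.8% to 29.5% and 28.97%, and THP-1 from 37.8% to 29.3% and 26.3%. In all 3 lines the share of LDHA was thus lower with BRM014. These shares are ratios inside a library and are given as values with no test.

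HK2 held 95.4% of hexokinase reads per kilobase (HK1, HK2 and HK3) in MOLM-13 with DMSO, then 85.4% and 76.5%. In MV-4-11 its share went from 72.1% to 45.0% and 34.0%. THP-1 started at 36.1%, stood at 19.0% at 24 h and was back at 34.7% at 72 h, where HK1 had fallen by 1.47 ± 0.09 in log2. With DB2313, where HK1 and HK3 rose, HK2 was down to 5.80%. PFKP held 35.3%, 41.9% and 19.4% of the phosphofructokinase reads in DMSO libraries of MOLM-13, MV-4-11 and THP-1. At 24 h its share was higher in each line, at 42.1%, 46.9% and 21.7%. By 72 h it stood at 37.4%, 36.8% and 14.3%, with no common direction against DMSO. The transporter balance moved in opposite ways. SLC2A1 went from 21.98% of SLC2A1 and SLC2A3 (GLUT3, a high-affinity transporter) to 47.5% at 72 h in MOLM-13, and from 46.6% to 4.61% in MV-4-11. In MOLM-13 SLC2A1 itself was not called, while SLC2A3 fell from 200 and 227 CPM to 91.0 and 79.5, by 1.52 ± 0.09 in log2. In MV-4-11 SLC2A3 had climbed from 42.3 and 48.7 CPM to 321 and 320, a log2 change of 2.76. In THP-1 SLC2A1 held 91.9% or more in every group mean. ENO1 held at least 99.4% of ENO1 and ENO2, and ALDOA at least 89.7% of ALDOA and ALDOC.

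**Figure D3:**
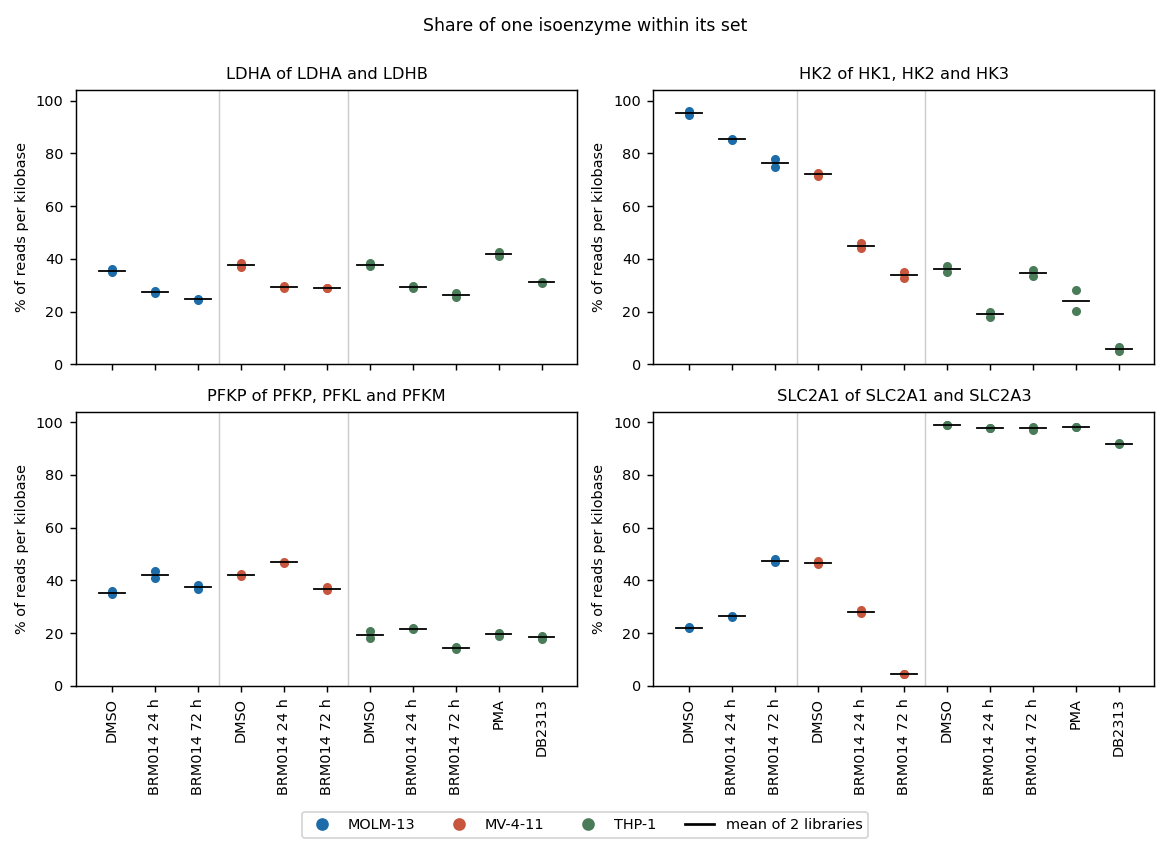
Share of one isoenzyme in its set for LDHA, HK2, PFKP and SLC2A1, as a percent of reads per kilobase of exon on axes from 0, with the 11 groups along the horizontal axis. Points are libraries coloured by line and black bars are means of 2; the LDHA share is lower with BRM014 than with DMSO in each line, and the SLC2A1 share reaches 4.61% in MV-4-11 at 72 h.

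Together the 10 genes held 1.40% and 1.47% of all gene reads in the MOLM-13 DMSO libraries, 1.12% in both 24 h libraries, and 0.588% and 0.568% at 72 h. THP-1 libraries went from 0.930% and 0.953% to 0.394% and 0.411% at 72 h. In MV-4-11 the sum fell from 1.40% and 1.45% to 0.973% and 0.990% and stood at 1.10% and 1.15% at 72 h. PKM alone of the 10 rose over that last step. It made up 8.89% of the sum in MV-4-11 DMSO libraries, 25.7% at 24 h and 56.3% at 72 h. The summed level of the other 9 genes went down at each step, from 12956 CPM to 7292 and 4925 in that line, from 13337 to 7747 and 4096 in MOLM-13, and from 8501 to 4629 and 3350 in THP-1.

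**Figure D4:**
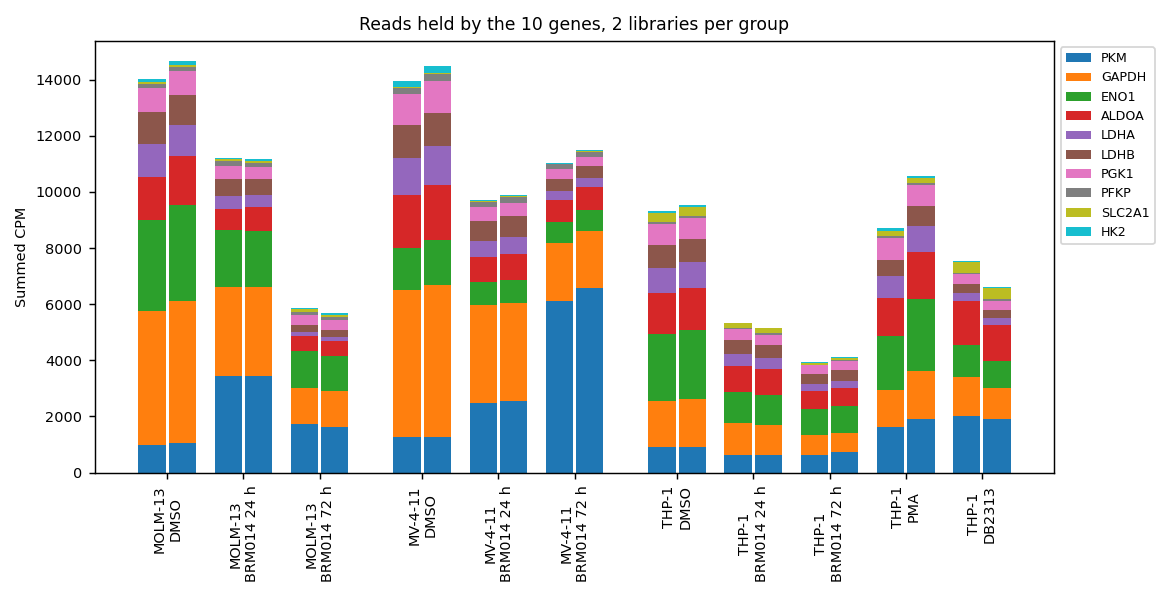
Summed CPM of the 10 genes in each of the 22 libraries, stacked by gene on an axis from 0, with the 2 libraries of a group side by side. The stack is lower with BRM014 in each line, and the PKM segment makes up 56.3% of it in MV-4-11 at 72 h.

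PMA left most of the path where it was in THP-1 cells. PKM rose 2.05-fold, from 903 and 927 to 1632 and 1908 CPM, and HK2 rose 1.48-fold, from 60.01 and 65.6 to 99.9 and 76.2. SLC2A1 fell 1.56-fold, to 185 and 190 CPM, and LDHB 1.19-fold, to 570 and 703. That makes 2 of 10 genes higher (18.9% of genes tested) and 2 lower (17.1%), with a median of −0.02 against −0.02 over all genes. The PMA libraries themselves stood apart. ALDOA held 1352 and 1690 CPM in them, GAPDH 1311 and 1711 and ENO1 1940 and 2552, and reads outside features were 16.0% and 12.4%. Without the second PMA library 5 genes were called lower. The LDHB call was lost without the first PMA library or without either DMSO library, which left SLC2A1 as the 1 gene lower. Of all calls with PMA 52.5% were higher, 41.0% with libraries scaled by size alone, and 66.1% with only the groups compared, which left 1993 genes higher and 1023 lower in place of 3177 and 2880. The summed myeloid markers were 9854 to 10086 CPM against 2795 to 2999 in DMSO, with LYZ at up to 8432 CPM, and the macrophage markers 954 to 959 against 438 to 454. Their part in these results was not tested.

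DB2313 lowered 7 of the 10 genes (29.5% of genes tested) and raised 2 (35.9%), with a median of −0.91 against 0.14 over all genes. LDHA fell 3.63-fold, to 284 and 247 CPM, HK2 2.88-fold, to 19.9 and 26.1, and LDHB 2.71-fold, to 331 and 294. ENO1, PGK1, PFKP and GAPDH fell 2.45-fold, 2.37-fold, 1.49-fold and 1.41-fold. PKM rose 2.04-fold, to 2006 and 1924 CPM. SLC2A1 rose 1.21-fold, to 388 and 404 CPM, the highest level of that gene in the series, a call lost without the first THP-1 DMSO library (adjusted p = 0.0550). ALDOA, at 1569 and 1292 CPM, overlapped DMSO. The labels do not say whether the DB2313 and DMSO libraries were made together. The pair of DB2313 libraries stood apart by a chi-square over genes of 10.7 for each degree of freedom, more than any pair but that of PMA, and the 10 genes summed to 7530 and 6600 CPM in them. Reads outside features were 17.9% and 18.7% against 16.5% and 15.8%. Markers of red cells and megakaryocytes summed to 140 to 152 CPM with DB2313 against 0.990 to 1.19 in DMSO, nearly all from ITGA2B. PF4, a defining platelet marker, was at 0. The epithelial and fibroblast markers summed to 81.1 to 85.6 CPM. Their part in these changes was not tested.

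A direct comparison of the 72 h treatments in THP-1 cells needed no DMSO library. Whether the BRM014 and DB2313 libraries were made together is not in the labels, so preparation and treatment cannot be told apart here. SLC2A1 was 5.88-fold lower with BRM014 than with DB2313, PKM 2.95-fold, ALDOA 2.26-fold, PFKP 2.17-fold and GAPDH 1.79-fold. LDHB was 1.22-fold higher with BRM014, a call lost without one BRM014 library (adjusted p = 0.126) or one DB2313 library (0.189). HK2, PGK1, ENO1 and LDHA were not called, at 0.20 ± 0.12, −0.13 ± 0.07, −0.15 ± 0.11 and −0.07 ± 0.09 in log2. That makes 5 genes lower (30.9% of genes tested) and 1 higher (30.4%). Against PMA, all 10 genes were lower with BRM014 at 72 h (29.8%), from −0.91 ± 0.09 for LDHB to −1.91 ± 0.09 for LDHA in log2.

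Over the 11 groups, SLC2A1 had the widest range of group means, 25.1-fold, from 396 CPM in THP-1 with DB2313 to 15.8 in MV-4-11 at 72 h. HK2 ranged over 11.1-fold and PKM over 10.1-fold, while ALDOA and PGK1 ranged over 3.62-fold and 3.65-fold. MV-4-11 with DMSO held the highest mean of 7 genes, and THP-1 or MOLM-13 with BRM014 at 72 h the lowest of 6. Neighbours in that order often overlapped. For LDHA, THP-1 with DMSO and with PMA overlapped, as did THP-1 with DB2313 and with BRM014 at 72 h. For ALDOA, MOLM-13 with DMSO and the PMA, DMSO and DB2313 groups of THP-1 overlapped in turn.

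Among the other genes of glycolysis, GPI, the isomerase between hexokinase and phosphofructokinase, fell as well, by 1.28 ± 0.06 at 24 h and 1.77 ± 0.06 at 72 h averaged over the lines. TPI1 and PGAM1, the remaining enzymes of the lower path, fell by 0.83 and 0.68 at 72 h. ALDOC and PFKFB4, which makes an activator of phosphofructokinase, fell by 2.76 ± 0.12 and 2.46 ± 0.08. ENO3, the muscle enolase, rose by 1.55 ± 0.09. Of 22 such genes 19 were tested, with 4 higher and 9 lower at 24 h (28.9% and 27.1% of all genes tested) and 4 higher and 11 lower at 72 h (34.9% and 30.4%). Their medians were −0.69 and −0.41, against 0.03 and 0.07 over all genes. With DB2313, 10 were higher and 4 lower (35.9% and 29.5%), HK3 (2.16 ± 0.13), PFKFB4 (2.06 ± 0.13) and HK1 (1.20 ± 0.08) among those that rose.

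Of 13 tested transport genes, 1 was higher and 5 lower at 24 h (28.9% and 27.1% of all genes tested), and 2 higher and 3 lower at 72 h (34.9% and 30.4%). SLC16A1, the lactate carrier MCT1, fell by 0.97 ± 0.04 and 1.82 ± 0.05, while BSG, the chaperone of that carrier, rose by 1.06 ± 0.06 and 1.14 ± 0.06. The median was −0.37 at 24 h and 0.10 at 72 h. By line at 72 h the counts varied, with 2 higher and 9 lower in MOLM-13 (30.3% and 29.4%; median −1.14), 6 and 3 in MV-4-11 (28.4% and 26.1%) and 4 and 5 in THP-1 (30.9% and 28.0%). With DB2313, 6 were higher and 4 lower (35.9% and 29.5%), led by SLC2A3 at 3.29 ± 0.13.

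In the branches around the path, the calls went both ways. Of 13 genes of pyruvate entry to mitochondria, 4 were higher and 6 lower at 24 h and 3 higher and 7 lower at 72 h. Over all genes tested, here and for the lists that follow, 28.9% were higher and 27.1% lower at 24 h, and 34.9% and 30.4% at 72 h. PDK1, a kinase that shuts pyruvate dehydrogenase, fell by 2.06 ± 0.07 at 72 h, the dehydrogenase subunit PDHA1 fell by 1.09 ± 0.04, and the opposing phosphatase PDP1 rose by 1.26 ± 0.05. Of 7 pentose phosphate genes, 2 were higher and 3 lower at 24 h and 3 and 3 at 72 h, with PGD up by 0.56 ± 0.04 and RPIA down at −1.38 ± 0.07. Of 13 tested genes of opposing or branching steps, 2 were higher and 6 lower at 24 h and 3 and 5 at 72 h. Of 18 hypoxia response genes, 5 were higher and 6 lower at 24 h and 8 and 4 at 72 h. By line the counts varied. In THP-1, 11 were higher and 2 lower at 24 h (25.9% and 24.1% of all genes tested; median 0.52) and 10 and 2 at 72 h (30.9% and 28.0%; median 0.69). In MOLM-13, 4 were higher and 9 lower at 24 h (22.7% and 23.5%, median −0.88) and 7 and 9 at 72 h (30.3% and 29.4%, median −0.27). MV-4-11 had 3 and 9 at 24 h (23.6% and 22.4%, median −0.63) and 6 and 7 at 72 h (28.4% and 26.1%, median −0.02). The difference between lines was not tested for the list. VEGFA and NDRG1 rose by 1.47 ± 0.06 and 1.38 ± 0.05 at 72 h while P4HA1 fell by 1.34 ± 0.06, averaged over the lines. The 72 h medians of these 4 lists, averaged over the lines, were −0.23, −0.01, −0.13 and 0.09, against 0.07 over all genes.

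Among the regulators, MYC fell by 3.45 ± 0.05 at 24 h and fell by 5.04 ± 0.05 at 72 h averaged over the lines, by 0.92 ± 0.08 with PMA and by 1.82 ± 0.08 with DB2313. From 24 to 72 h MYC went from 71.2 and 68.7 to 8.75 and 9.90 CPM in MOLM-13 and from 130 and 145 to 38.1 and 41.8 in MV-4-11. In THP-1 it stayed level over that step, at 19.8 and 17.8 CPM and then 19.2 and 18.5. HIF1A was not called at 24 h (−0.01 ± 0.08) and rose by 0.18 ± 0.08 at 72 h, a call lost with DESeq2 (adjusted p = 0.0544). That mean rise does not describe THP-1, where 53.3 and 45.2 CPM at 72 h overlapped 53.6 and 49.5 in DMSO. MOLM-13 went from 35.4 and 28.5 to 50.6 and 54.4 CPM, and MV-4-11 from 52.5 and 47.1 to 58.8 and 58.3. TXNIP, which restrains glucose uptake, rose in THP-1 by 0.71 ± 0.08 and 1.21 ± 0.08 and fell in MV-4-11 by 1.77 ± 0.09 and 1.73 ± 0.09. In MOLM-13 it fell by 0.85 ± 0.09 at 24 h and rose by 0.35 ± 0.08 at 72 h. SPI1 fell by 1.72 ± 0.07 and 1.45 ± 0.07 with BRM014 and was not called with DB2313 (−0.17 ± 0.11).

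Across the 11 group means of log2 CPM, the members did not form 1 block. As a description, Pearson's r with the mean of the other 9 was 0.93 for PGK1 and 0.86 for LDHA, but −0.21 for SLC2A1 and −0.06 for PKM. LDHA and LDHB had r of 0.97 with each other, and PFKP and GAPDH 0.91. With MYC, r was 0.92 for LDHA, 0.90 for ALDOA, PGK1 and LDHB, and −0.01 for SLC2A1 and PKM. The tested genes most like the mean of all 10 were SLC38A5 (r = 0.99), C20orf27 (0.97), FTSJ1 (0.95), GPI (0.95) and YBX3 (0.95). Single genes had their own neighbours, TOMM34 and MRTO4 for LDHA (0.99 and 0.98), WDR18 for GAPDH (0.99), and GAS1 for PKM (0.90). The groups share lines, DMSO libraries and treatments, so these 11 points are not independent.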

How the data were processed

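Polyadenylated RNA of 22 libraries of 3 cell lines was sequenced, and the 10 genes, the gene lists and the alternatives were chosen with earlier results of these data known. The deposited values were raw counts of reads per gene symbol, 1 file per library, made by the authors without normalization in the files. The tools DESeq2, HTSeq and HISAT2 2.1.0 and the build hg38 are known from the submitters' processing notes; the role of each, the annotation and the strand setting are not given in the sources used here, so overlapping genes and near-identical copies are uncertain. Lines that name no gene stayed out of library sizes and tests; the no-feature line held 12.0% to 19.2% of reads. Libraries were grouped by line and treatment from the sample titles and descriptions.

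Levels are CPM over 28063 gene rows, 15893489 to 21565666 reads per library. Counts were tested in edgeR 4.0.16 (R 4.3.3, limma 3.58.1): 1 fit of all 22 libraries with a coefficient per group and no replicate term, TMM scaling, filterByExpr with a minimum count of 10 (16794 genes kept), the quasi-likelihood F test, and Benjamini-Hochberg adjustment over all genes kept, called under 0.05. The SE was obtained as the absolute log2 fold change over the root of F. The fit was tested on simulated counts. Named were the 10 genes, 10 other enzymes or isoenzymes, MYC, HIF1A, TXNIP and SPI1, and up to 4 called genes of lowest adjusted p from each list. Lists held other glycolysis genes, glucose and lactate transport, pyruvate entry to mitochondria, the pentose phosphate path, opposing or branching enzymes, and hypoxia response genes. Likeness used log2 CPM with a prior count of 2. Exon lengths for reads per kilobase came from GENCODE v29 by symbol, and promoters from RefSeq. Alternatives were RLE scaling, library size alone, scaling without the 10 genes, no filter, a replicate block, DESeq2 1.42.0, only the groups compared, and each library left out. The planned protein comparison of LDHA with LDHB was not made, since no protein table was used here.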

Additional observations from a re-analysis of the deposited data

Results flagged for a closer look

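The effect of BRM014 differed between the 3 lines for 3 of the 10 genes at 24 h and all 10 at 72 h, by edgeR's F test of both differences with adjustment over all genes tested. Of all genes tested, 43.5% were called by this test at 24 h and 52.9% at 72 h. At 24 h the adjusted p was 2.31e-06 for SLC2A1, 0.000881 for PFKP and 7.48e-11 for PKM. SLC2A1 fell in MV-4-11 and THP-1, by 0.92 and 0.87 in log2, and stood at 0.14 in MOLM-13. PKM rose by 1.64 in MOLM-13 and 0.93 in MV-4-11, and its change in THP-1 was −0.60. PFKP fell in THP-1 by 0.75, with −0.15 in MOLM-13 and −0.35 in MV-4-11.

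At 72 h the adjusted p was 2.98e-11 for SLC2A1, 3.55e-07 for HK2, 1.47e-07 for PFKP, 0.0123 for ALDOA and 0.000386 for GAPDH. It was 0.00710 for PGK1, 0.0244 for ENO1, 1.39e-12 for PKM, 1.86e-07 for LDHA and 1.06e-06 for LDHB. For PKM the lines also differed in direction, with 0.55 in MOLM-13, 2.27 in MV-4-11 and −0.53 in THP-1. For ALDOA, GAPDH, PGK1, ENO1, LDHA and LDHB the change was a fall in each line, and the difference was one of size.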

How the results depend on the processing

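Of 150 log2 fold changes of the 10 genes against which each alternative was set, 150 kept direction and side of the threshold with scaling without the 10 genes, 149 with RLE scaling, 148 with DESeq2, 147 with no low-count filter, 146 with library size alone and 142 with only the groups compared. HK2 made 1 gene higher between 24 and 72 h in THP-1 (0 in the main analysis) with RLE scaling, library size alone, no filter, DESeq2 and only the groups compared. Library size alone made 2 genes higher in MOLM-13 at 24 and 72 h, SLC2A1 joining PKM, and 2 and 4 transport genes higher at 24 and 72 h. It shifted the median over all genes by 0.10 at 72 h averaged over lines, 0.16 in MOLM-13 at 72 h and 0.17 for BRM014 at 72 h against PMA. The share of calls that were higher moved from 49.1% to 59.3% in MOLM-13 at 24 h and from 50.5% to 60.9% against PMA. The effect of 24 h of BRM014 differed between lines for 5 genes with no filter, 5 with DESeq2 and 6 with only the groups compared. That last setting made 2 transport genes higher at 24 h and left 1 gene lower with PMA. Under it the log2 changes of ENO1 and LDHA with PMA turned sign, to 0.0207 and 0.0201, from −0.0192 for each in the main analysis. The cause of these moves was not tested. Without length scaling the median share was 44.3% for LDHA, 46.6% for HK2, 41.0% for PFKP, 48.1% for SLC2A1, 99.8% for ENO1 and 99.2% for ALDOA. After TMM the summed CPM was 16019 in MOLM-13 with DMSO, 11438 at 24 h, 9474 in MV-4-11 at 24 h, and 5114 and 3810 in THP-1 at 24 and 72 h.

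With each library left out in turn, a lone library being taken to vary like the other groups, the counts ran from 1 to 5 for genes lower with PMA, 1 to 2 for genes higher with DB2313, 0 to 1 for genes higher with BRM014 at 72 h against DB2313, and 2 to 4 for transport genes higher at 72 h. Uncalled changes that turned sign ran from −0.0367 to 0.0905 (SLC2A1, 72 against 24 h, MOLM-13) and −0.0389 to 0.158 (PKM, the same in THP-1). With PMA they ran from −0.0755 to 0.298 (ALDOA), −0.29 to 0.15 (GAPDH), −0.26 to 0.19 (ENO1) and −0.16 to 0.11 (LDHA). Against DB2313 they ran from −0.29 to 0.00299 (ENO1) and −0.18 to 0.0604 (LDHA), and ALDOA with DB2313 from −0.30 to 0.0276. The difference between lines at 72 h was lost for ALDOA without the second MOLM-13 library at 72 h (adjusted p = 0.0719) or with DMSO (0.0952), for ENO1 without either MV-4-11 library at 72 h, those 2 MOLM-13 libraries or the first MV-4-11 DMSO library (0.0544 to 0.118), and for PGK1 without the second MV-4-11 DMSO library (0.0544). The DMSO difference of ALDOA was lost without the first THP-1 DMSO library (0.0623).

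Libraries with the same replicate number had little deviation in common, which cannot tell whether they were made together. Deviations of same-numbered libraries correlated at −0.117 to 0.0852 over 55 pairs of groups. With the number as a replicate block, 9 genes were lower and 1 higher at 72 h averaged over lines, and none of the 150 member results changed its call.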
